A study of Mus musculus with 6 samples.

Results

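The Slc25 genes encode the mitochondrial carriers, the family of transporters through which metabolites, nucleotides, cofactors and ions cross the inner mitochondrial membrane. They were taken as every gene of the deposited expression table whose symbol is Slc25a followed by a number, which gave 47 of 55401 genes. TPM is a level scaled by transcript length and library total. In 38 of the family's genes it reached 1 or more in 3 or more of the 6 libraries, and these were tested, among 14209 genes tested in all. The libraries came from NIH-3T3, an established line grown from fibroblasts of mouse embryos. The 3 WT libraries are of the line with genotype WT, and the 3 MU libraries are of a derivative of the same line whose genotype is given as Mutation. Both were kept in the same serum-containing medium, and the labels name no agent for either. The series, whose title concerns infidelity of mitochondrial translation, compares the derivative with its parent. Which gene was mutated, and whether MU is 1 clone, is not stated there. One parent and one derived line were measured, so an effect of the mutation and any other difference between these lines cannot be told apart.

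Mitochondrial carriers are encoded in the nucleus, made in the cytosol and imported. The outer-membrane receptor Tom70 binds them, small Tim chaperones escort them across the space between the membranes, and the TIM22 complex inserts them into the inner membrane. Most of them exchange one solute for another, and they tie the matrix to the cytosol in ATP export, the malate-aspartate shuttle, citrate export, amino acid breakdown, and the making of heme and iron-sulfur clusters.

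Some facts of the whole series bear on the values below. All 8 fibroblast markers were at a TPM of at least 1 in all 6 libraries, and their summed TPM was 5422 to 6869 in WT and 8588 to 8987 in MU; 4 of them rose (Col1a1, Col1a2, Thy1 and Fn1) and 4 did not pass. The markers of other cell types were low. Summed TPM in WT and MU was 0.240 to 0.573 and 0.410 to 0.666 for epithelium, 0.0249 to 0.213 and 0.545 to 0.997 for muscle (2 of 4 at 0 in all libraries), and 0.316 to 0.470 and 0.0556 to 0.218 for adipocytes (1 of 4 at 0). For leukocytes and endothelium it was 3.84 to 6.46 and 4.004 to 6.45 (0 of 4 at 0 in all libraries). Of these 4, the endothelial cadherin Cdh5 fell from 1.82 ± 0.86 TPM in WT to 0.105 ± 0.012 in MU (SD, n = 3; difference −1.31, limma adjusted p = 0.0186), and the macrophage marker Cd68, at 2.56 ± 0.72 and 4.47 ± 1.34, did not pass (limma adjusted p = 0.147). Libraries also differed in how their deviations followed GC content, with a Spearman correlation across genes of 0.33 in WT replicate 2, −0.25 in WT replicate 3 and 0.166 in MU replicate 3, against −0.124 to −0.0836 in the others. The part of these differences in the results was not tested. Whether libraries of a group are separate cultures is not stated, so each p-value reflects only how much these samples vary, which may be technical.

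Promoters of 4 carriers are printed because these genes carry the main values: Slc25a23, Slc25a28 and Slc25a5 had the smallest adjusted p among members that were lower in MU, and Slc25a30 had the smallest among those that were higher. Each run is the 250 bases before the first transcription start listed in RefSeq (GRCm38.p6), 5′ to 3′ on the gene's own strand. They are Slc25a23 at chr17:57059864-57060113 on the minus strand, Slc25a28 at chr19:43674882-43675131 on the minus strand, Slc25a5 at chrX:36795347-36795596 on the plus strand, and Slc25a30 at chr14:75787038-75787287 on the minus strand. Capitals mark matches on either strand to the GC box GGGCGG and the CCAAT box CCAAT.
Slc25a23: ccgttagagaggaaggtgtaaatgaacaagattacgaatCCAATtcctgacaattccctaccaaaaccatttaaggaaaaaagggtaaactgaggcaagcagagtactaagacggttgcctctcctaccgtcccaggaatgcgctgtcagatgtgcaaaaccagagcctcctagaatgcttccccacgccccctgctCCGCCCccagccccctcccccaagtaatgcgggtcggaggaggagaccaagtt
Slc25a28: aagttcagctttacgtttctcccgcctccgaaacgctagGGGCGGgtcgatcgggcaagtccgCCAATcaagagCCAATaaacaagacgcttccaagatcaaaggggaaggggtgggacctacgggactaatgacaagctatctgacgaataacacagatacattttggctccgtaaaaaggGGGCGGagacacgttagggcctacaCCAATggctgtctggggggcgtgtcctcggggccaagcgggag
Slc25a5: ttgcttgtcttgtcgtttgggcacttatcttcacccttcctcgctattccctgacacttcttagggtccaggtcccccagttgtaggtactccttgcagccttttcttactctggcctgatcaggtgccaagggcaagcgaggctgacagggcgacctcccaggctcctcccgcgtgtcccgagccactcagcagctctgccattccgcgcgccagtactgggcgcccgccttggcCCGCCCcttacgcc
Slc25a30: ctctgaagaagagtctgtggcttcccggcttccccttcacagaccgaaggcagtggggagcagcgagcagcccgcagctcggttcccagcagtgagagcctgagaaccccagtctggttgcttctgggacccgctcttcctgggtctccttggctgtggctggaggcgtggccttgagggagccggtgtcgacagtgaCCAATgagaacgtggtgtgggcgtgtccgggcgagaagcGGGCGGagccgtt

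The Slc25a23 stretch holds 1 GC box and 1 CCAAT box, that of Slc25a28 holds 2 and 3, that of Slc25a5 holds 1 GC box, and that of Slc25a30 holds 1 of each. Promoters of 29 of the 38 tested members were in the set searched for motifs. A GC box lay in 72.4% of these (21 of 29) and in 42.7% of the 17492 promoters of protein-coding genes. A CCAAT box lay in 48.3% (14 of 29) and 36.3% respectively. The E-box CACGTG lay in 17.2% (5 of 29) and 6.6%, and the palindromic NRF1 motif in 0 of 29 and 1.1%. The 29 members had passed the TPM filter, whereas the 17492 promoters were taken whether or not their genes were expressed. These shares are therefore not of like sets, and the part of the filter in them was not tested. The 4 promoters and the motifs were chosen after the values were seen, motif matches do not overlap one another in the printed stretches, and a match is a description of the letters only.

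The carriers spanned more than 2 orders of magnitude in level. The phosphate carrier Slc25a3 was the most abundant, followed by the ADP/ATP carriers Slc25a5 and Slc25a4 and the glutathione carrier Slc25a39, and these 4 were the members with a mean TPM over all libraries of at least 100. At the low end 13 tested members had a mean TPM under 10, the lowest being 2.70 for Slc25a29, a carrier of basic amino acids. Slc25a3, Slc25a4 and Slc25a5 together made up 64.6% ± 0.97 of the family's summed TPM in WT and 62.4% ± 0.21 in MU (SD, n = 3). The sum over all 47 genes was 2805.97, 2774 and 3016 in the WT libraries and 2557, 2619 and 2571 in the MU libraries. Every MU sum lay below every WT sum, the group means being 2865 ± 132 and 2583 ± 32.3 TPM (SD, n = 3). This is a share of 0.287% of all TPM in WT and 0.258% in MU. Such shares also depend on the other genes of a library. The 20 tested genes on the mitochondrial genome had a median MU minus WT difference of 0.41 in log2(TPM + 1). After rescaling without mtDNA-encoded genes the carriers' median difference was −0.14, where it was −0.20 before. The median of all tested genes moved as well, from −0.05 to 0.002. The part of the mtDNA-encoded genes in the lower sum was not tested. In these bulk samples, fewer cells of a kind and less RNA per cell cannot be told apart.

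**Figure D1:**
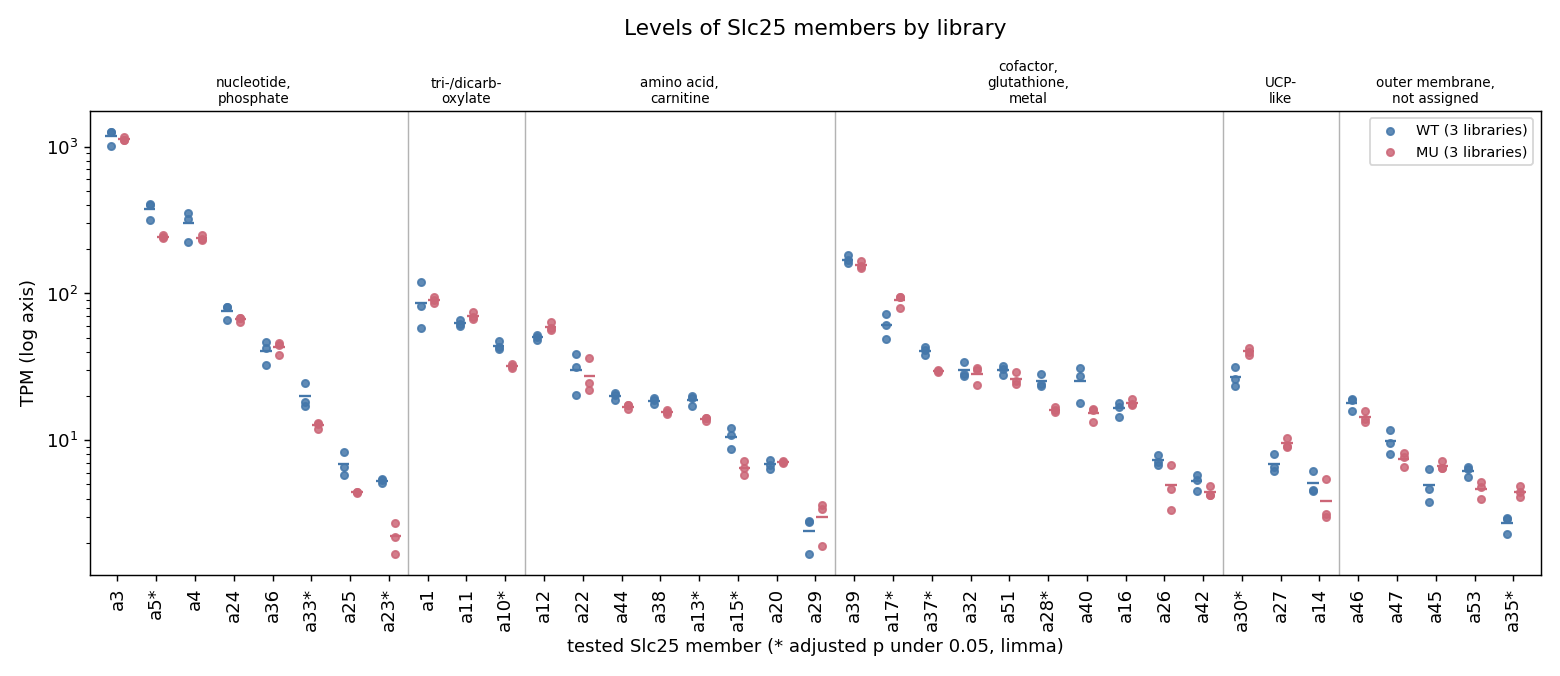
Level of tested Slc25 members in every library, in TPM on a log axis, ordered within substrate class by mean level. Points are libraries (WT blue, MU red), short bars are group means of 3 libraries, and an asterisk marks an adjusted p under 0.05 (limma). Slc25a3 is the highest in all libraries, and in Slc25a5, Slc25a10, Slc25a28 and Slc25a37 every MU point lies below every WT point.

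Of the 38 tested carriers, 8 fell in MU, 3 rose and 27 did not pass the test (limma on log2(TPM + 1), p adjusted over all tested genes by Benjamini-Hochberg, threshold 0.05). Differences below are MU minus WT on that scale. The alternative settings changed the filter, the pseudocount added before the log, the scaling or the model, corrected for GC content and transcript length, took each gene relative to its chromosomal neighbours, or left out a library. A neighbour median below is the median difference of the neighbours minus the median of all tested genes. A difference relative to neighbours is the gene's own difference minus that neighbour median. The members that fell were Slc25a5, Slc25a10, Slc25a13, Slc25a15, Slc25a23, Slc25a28, Slc25a33 and Slc25a37, and those that rose were Slc25a17, Slc25a30 and Slc25a35. Over all tested genes 18.8% were called, 11.6% lower and 7.12% higher, so 3 rises among 38 members are close to the background. The groups did not overlap in 7 members that were higher and 14 that were lower in MU, where 39.2% of all tested genes had groups that did not overlap (16.1% higher, 23.0% lower). The median difference of the members was −0.20 on the log2 scale and that of all tested genes −0.05. In all 18 alternative settings the members' median stayed below that of all genes. Of these, the replicate block, limma without trend and limma robust leave each difference as it was, so they could not move these medians. In these members the WT libraries spread more than those of MU: 29 of 38 had the larger SD in WT, and the median SD of log2(TPM + 1) was 0.16 in WT and 0.09 in MU. The spread over all tested genes was not computed, so this may not be particular to the carriers.

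How many members passed depended on single libraries, and so did the calls over all genes. On leaving out MU replicate 1, 2 or 3, the members that fell numbered 1, 1 and 2, and 0 rose each time, while 4.96%, 4.53% and 5.19% of all tested genes were called lower and 3.01% to 3.27% higher. Without WT replicate 1, 5 fell and 0 rose, without WT replicate 2, 11 fell and 3 rose, and without WT replicate 3, 6 fell and 2 rose. Of all tested genes, 5.64%, 15.8% and 11.2% were called lower and 4.43%, 8.11% and 6.93% higher in these 3 fits. Slc25a23 was the member that passed in all 6 of these fits. Scaling by median of ratios moved the share of higher calls among all called genes from 37.9% to 48.3%, and shifted the median of all genes from −0.05 to 0.00, with 5 members higher and 8 lower. Of all tested genes, 8.99% were called higher and 9.62% lower in that fit. In the authors' deposited table, 10 of the 38 members were lower and 4 higher at an adjusted p under 0.05, against 21.1% of the 17009 genes with an adjusted p there (11.6% lower, 9.42% higher). All 11 members called here were among them with the same sign. Slc25a25 (adjusted p = 0.0328 in the authors' deposited table), Slc25a40 (0.00471) and Slc25a27 (0.0306) were the added ones.

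**Figure D2:**
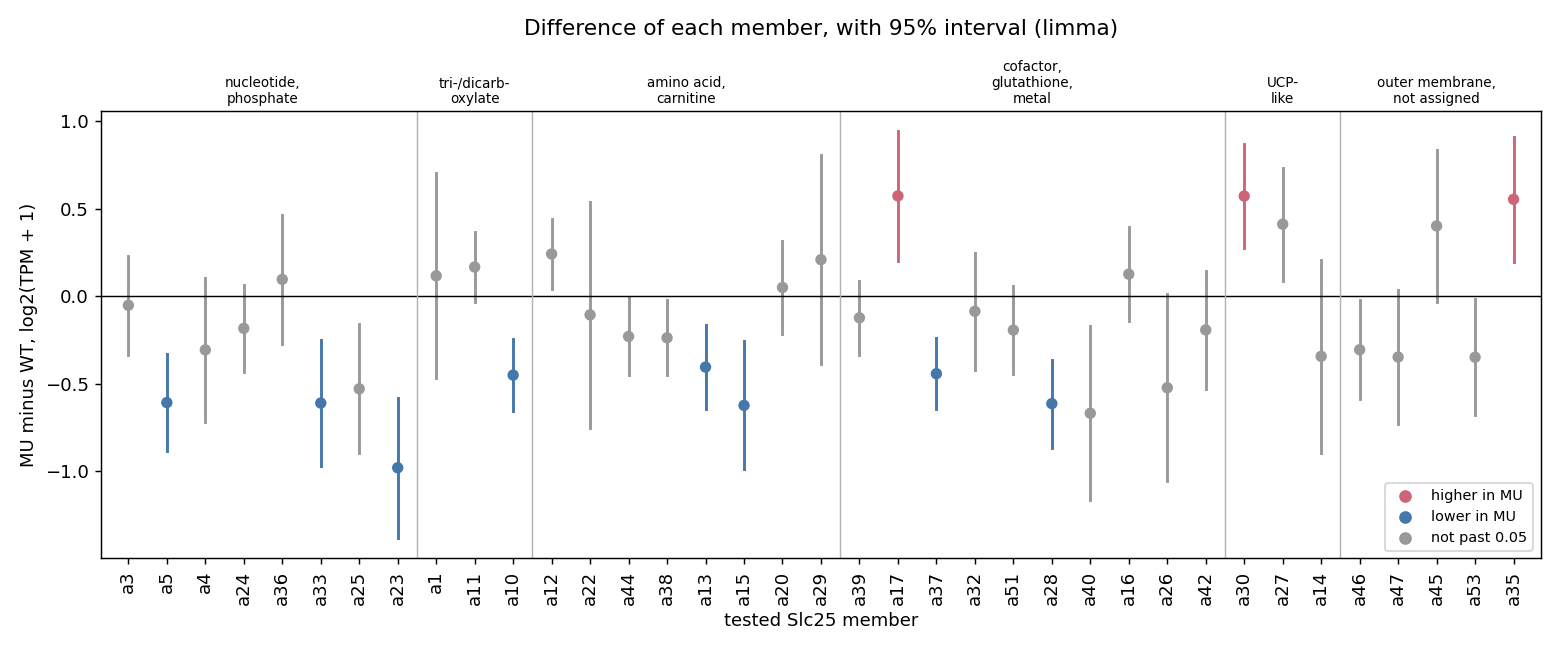
Difference of tested members between MU and WT on the log2(TPM + 1) scale with its 95% interval from limma (n = 3 per group), in the order of the plot of levels. Red marks members that were higher and blue members that were lower in MU at an adjusted p under 0.05. Slc25a23 has the lowest value at −0.98, and the 3 higher members lie between 0.55 and 0.57.

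Nucleotide and phosphate carriers supply the matrix with ADP and phosphate and release ATP. Of 10 such genes 8 were tested, of which 3 fell (Slc25a5, Slc25a23 and Slc25a33) and 5 did not pass. The median difference of the class was −0.42, and its summed TPM was 2002 ± 126 in WT and 1742 ± 19.0 in MU (SD, n = 3). The class made up 69.8% ± 1.22 of the family's TPM in WT and 67.4% ± 0.15 in MU.

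Slc25a23 is a calcium-regulated carrier that exchanges ATP-Mg for phosphate (chromosome 17, 57043711 to 57059863, minus strand, GRCm38). Its TPM was 5.11, 5.32 and 5.41 in the WT libraries and 2.20, 2.75 and 1.69 in the MU libraries. All MU libraries were low, and the groups did not overlap. The mean level was 2.39-fold lower in MU, the fall on the log2(TPM + 1) scale was −0.98 (SE 0.17, limma adjusted p = 0.0109), and it passed in all 18 alternative settings. At a pseudocount of 5 the difference was −0.51, as such a scale shrinks low genes. An antisense gene that overlaps its exons, Gm17168, had a mean TPM of 0.464 in WT and 0 in MU.

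Slc25a5 encodes the ADP/ATP carrier of dividing cells (chromosome X, 36795651 to 36798807, plus strand). The TPM of this gene was 317, 408 and 399 in WT and 244, 239.5 and 249.6 in MU. The MU libraries lay close together and below all WT libraries. The difference was −0.61 (SE 0.12, limma adjusted p = 0.0150), a level 1.54-fold lower in MU. Leaving out MU replicate 1, 2 or 3 gave limma adjusted p-values of 0.0662, 0.0729 and 0.0595. Its processed copies Gm5529 and Gm5560, which share stretches of at least 95% identity with it, were listed at 0 in all libraries. Slc25a4, the ADP/ATP carrier of heart and muscle, had 225, 353 and 323 in WT and 234, 231 and 250.1 in MU. Its groups overlapped through WT replicate 1, and the difference of −0.31 did not pass (limma adjusted p = 0.266), except without WT replicate 1 (−0.50, limma adjusted p = 0.034). The part of Slc25a5 in the sum of both was 55.8% ± 2.50 in WT and 50.6% ± 0.59 in MU.

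Slc25a33 carries pyrimidine nucleotides (chromosome 4, 149744036 to 149774277, minus strand). Its levels were 18.3, 16.99 and 24.7 TPM in WT and 11.9, 13.1 and 12.9 TPM in MU. WT replicate 3 stood highest, and no MU library reached a WT library. The difference was −0.61 (SE 0.15, limma adjusted p = 0.0355). The call was lost without WT replicate 1 and without each MU replicate (limma adjusted p = 0.0778, 0.12, 0.0998 and 0.102). It was also lost with no filter (0.0815), after rescaling without mitochondrial genes (0.0629), with the GC and length correction (0.0503) and relative to neighbouring genes (0.0574). Slc25a36, which carries the same kind of nucleotide, had 40.5 ± 7.32 TPM in WT and 43.1 ± 4.35 in MU (SD, n = 3; difference 0.10, limma adjusted p = 0.711).

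Slc25a3, which brings phosphate into the matrix, had 1259.7, 1012 and 1259.7 TPM in WT and 1119.6, 1159 and 1112 TPM in MU. WT replicate 2 was the lowest library and the other WT libraries the highest, so the groups overlapped. The difference of −0.05 (SE 0.12) did not pass (limma adjusted p = 0.803), and its sign turned under rescaling without mitochondrial genes (0.01), median-of-ratios scaling (0.01), the GC and length correction (0.03), and without WT replicate 1 or WT replicate 3. The other ATP-Mg carriers did not pass: Slc25a24 had 76.3 ± 8.58 TPM in WT and 66.8 ± 2.42 in MU, and Slc25a25 had 6.90 ± 1.34 and 4.43 ± 0.06 (SD, n = 3). Without WT replicate 2, Slc25a24 passed (−0.28, limma adjusted p = 0.0339). The Slc25a25 groups did not overlap (difference −0.53, limma adjusted p = 0.0576), and its exons overlap those of Naif1 on the other strand. Slc25a23 made up 5.997% ± 0.58 of the sum of these 3 carriers in WT and 2.998% ± 0.62 in MU.

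**Figure D3:**
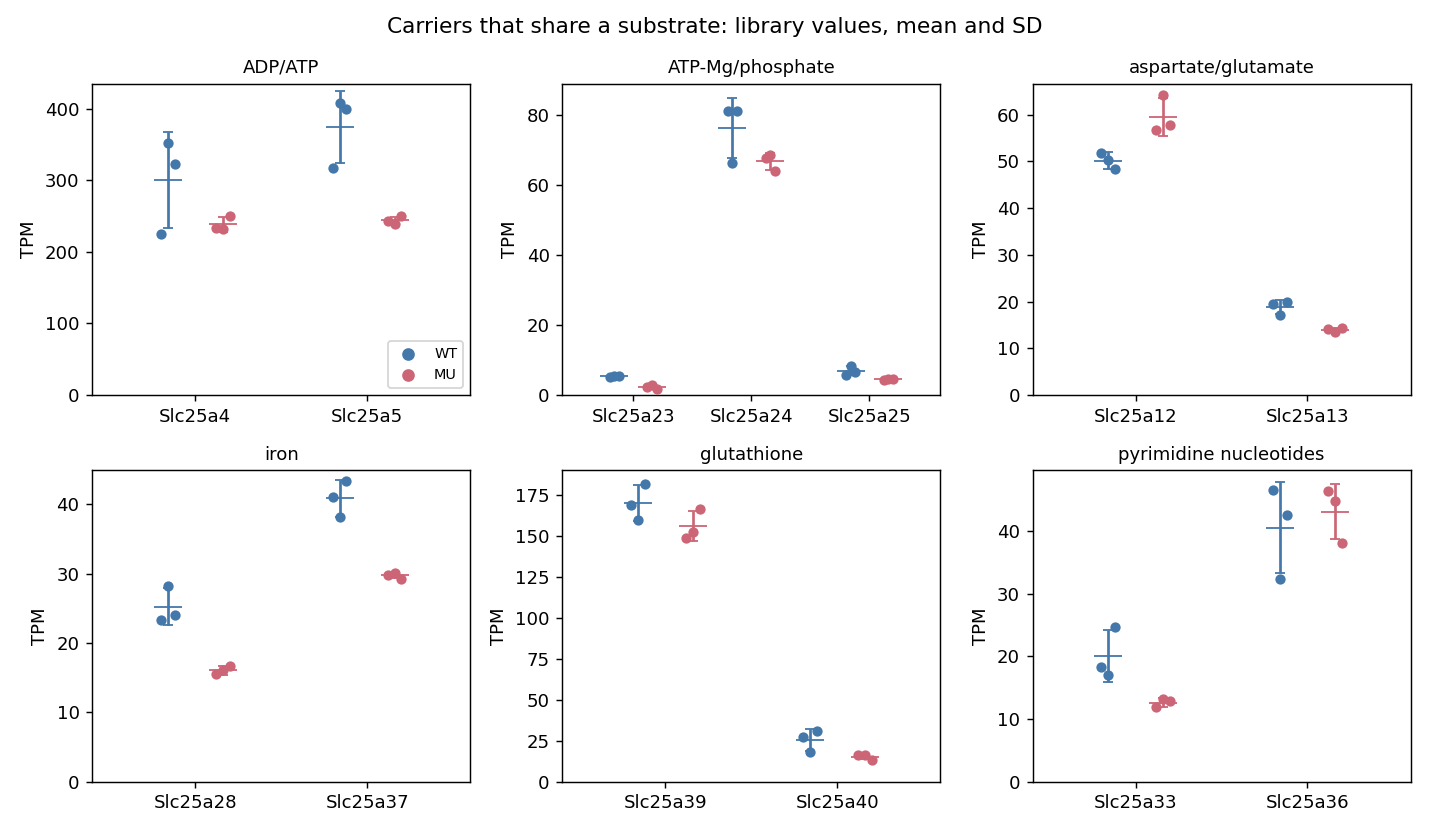
TPM of carriers that share a substrate, in 6 panels with axes that start at 0. Points are libraries, horizontal bars the group mean and vertical bars the SD (n = 3 per group). Slc25a13, Slc25a28, Slc25a37, Slc25a5, Slc25a23 and Slc25a33 show MU points below all WT points, as do Slc25a25 and Slc25a40, which did not pass. Slc25a12, which did not pass either, shows MU points above all WT points, while Slc25a4, Slc25a24, Slc25a39 and Slc25a36 overlap.

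The carriers of citrate, dicarboxylates and keto acids feed cytosolic acetyl-CoA and move reducing equivalents. Of 4 genes 3 were tested, of which Slc25a10 fell and 2 did not pass. Their summed TPM was 194 ± 27.5 in WT and 193 ± 8.72 in MU (SD, n = 3).

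Slc25a10, which exchanges malate or succinate for phosphate (chromosome 11, 120491840 to 120499187, plus strand), had 41.6, 43.4 and 47.6 TPM in WT and 31.2, 31.9 and 33.01 TPM in MU. The groups were well apart, each with a narrow range. The difference was −0.45 (SE 0.09, limma adjusted p = 0.0155), a level 1.38-fold lower. Leaving out MU replicate 1, 2 or 3 gave limma adjusted p-values of 0.0751, 0.0754 and 0.0578, and the GC and length correction gave 0.0683.

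Slc25a1, the citrate carrier, had 81.8, 120.4 and 57.9 TPM in WT and 86.1, 90.01 and 94.2 TPM in MU. The WT libraries enclosed all MU libraries. The difference of 0.12 (SE 0.25) did not pass (limma adjusted p = 0.784), and without WT replicate 3 it was −0.14. Slc25a11, the oxoglutarate carrier of the malate-aspartate shuttle, had 62.6 ± 2.69 TPM in WT and 70.5 ± 4.49 in MU (SD, n = 3). Its groups did not overlap, and the difference of 0.17 did not pass (limma adjusted p = 0.221).

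The amino acid and carnitine carriers numbered 10, of which 8 were tested, Slc25a13 and Slc25a15 fell and 6 did not pass. Their summed TPM was 158 ± 7.21 in WT and 150.4 ± 11.2 in MU (SD, n = 3).

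Slc25a13 and Slc25a12 are the aspartate/glutamate carriers of the malate-aspartate shuttle, and Slc25a13, named citrin, also serves the urea cycle in liver (chromosome 6, 6041218 to 6217173, minus strand). Slc25a13 had 19.5, 17.1 and 19.9 TPM in WT and 14.1, 13.5 and 14.2 TPM in MU. All MU libraries were below the WT libraries. The difference was −0.40 (SE 0.10, limma adjusted p = 0.0348). The call was lost in every fit that left out a library except that without WT replicate 2 (limma adjusted p = 0.104 without WT replicate 1, 0.073 without WT replicate 3, and 0.11, 0.132 and 0.102 without MU replicates 1, 2 and 3). It was also lost with no filter (0.0571), after rescaling without mitochondrial genes (0.0775) and relative to neighbouring genes (0.052). Slc25a12 had 51.8, 50.4 and 48.3 TPM in WT and 56.7, 64.1 and 57.8 TPM in MU. Here the MU libraries were the higher ones and the groups did not overlap either. The difference of 0.24 (SE 0.08) did not pass (limma adjusted p = 0.0975) but did with median-of-ratios scaling (0.0486), quantile normalization (0.0325) and the GC and length correction (0.0359). Slc25a13 made up 27.3% ± 1.96 of the sum of this pair in WT and 19.0% ± 1.43 in MU.

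Slc25a15, the ornithine carrier (chromosome 8, 22375551 to 22398597, minus strand), had 10.9, 8.68 and 12.1 TPM in WT and 7.20, 5.76 and 6.45 TPM in MU. WT replicate 2 lay nearest to the MU libraries without reaching them. The difference was −0.62 (SE 0.15, limma adjusted p = 0.0344). Its chromosomal neighbours had a median of −0.30 relative to all tested genes, and relative to these neighbours its difference was −0.32 (limma adjusted p = 0.207). The call was also lost with no filter (0.0823), after rescaling without mitochondrial genes (0.0595), and in every fit that left out a library except that without WT replicate 2 (limma adjusted p = 0.106 without WT replicate 1, 0.0751 without WT replicate 3, and 0.0739, 0.123 and 0.104 without MU replicates 1, 2 and 3).

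The other tested members of this class did not pass. The glycine carrier Slc25a38 had 18.6 ± 0.91 TPM in WT and 15.6 ± 0.47 in MU, and the branched-chain amino acid carrier Slc25a44 had 20.1 ± 1.15 and 16.9 ± 0.56 (SD, n = 3). Both had groups that did not overlap, with limma adjusted p-values of 0.118 and 0.133. The glutamate carrier Slc25a22 ranged from 20.3 to 38.5 TPM in WT and from 22.02 to 36.1 in MU. The carnitine carrier Slc25a20 had 6.84 ± 0.53 TPM in WT and 7.11 ± 0.10 in MU, and Slc25a29 had 2.41 ± 0.64 and 2.98 ± 0.94 (SD, n = 3). Slc25a20 shares a stretch of 366 bases with transcripts of 18 other genes, so its level is uncertain.

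The cofactor, glutathione and metal carriers numbered 11, all of them tested, and the iron carriers Slc25a28 and Slc25a37 fell, Slc25a17 rose and 8 did not pass. Summed TPM was 430.4 ± 32.4 in WT and 405 ± 5.66 in MU (SD, n = 3).

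Slc25a28 and Slc25a37 are mitoferrin 2 and mitoferrin 1, which bring iron into the matrix for heme and iron-sulfur clusters, mitoferrin 1 being known above all from developing red cells. Slc25a28 (chromosome 19, 43663801 to 43674881, minus strand) had 23.3, 28.3 and 24.1 TPM in WT and 15.5, 16.1 and 16.7 TPM in MU. The MU libraries were all low and close together. The difference was −0.61 (SE 0.11, limma adjusted p = 0.0110), a level 1.57-fold lower, and without MU replicate 1 or MU replicate 2 the limma adjusted p was 0.0548 and 0.0543. Slc25a37 (chromosome 14, 69241848 to 69285112, minus strand) had 41.1, 38.1 and 43.4 TPM in WT and 29.9, 30.1 and 29.3 TPM in MU. Again no MU library reached a WT library. The difference was −0.44 (SE 0.08, limma adjusted p = 0.0153). Its neighbours had a median of 0.25 relative to all tested genes, and relative to these neighbours the difference was −0.69. The call was lost without WT replicate 1 (limma adjusted p = 0.0542) and without MU replicates 1, 2 and 3 (0.0693, 0.071 and 0.0695). Slc25a28 made up 38.2% ± 3.85 of the sum of both in WT and 35.1% ± 1.17 in MU. These shares overlapped, at 35.7% to 42.6% in the WT libraries and 34.1% to 36.4% in the MU libraries.

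Slc25a17 is the peroxisomal member of the family, a carrier of coenzyme A, FAD and NAD (chromosome 15, 81318911 to 81360812, minus strand). It had 61.2, 48.9 and 72.0 TPM in WT and 95.3, 94.8 and 79.9 TPM in MU. All MU libraries were higher, with MU replicate 3 nearest to WT. The difference was 0.57 (SE 0.15, limma adjusted p = 0.0462), a level 1.48-fold higher. The call was lost in every fit that left out a library except that without WT replicate 3 (limma adjusted p = 0.114 without WT replicate 1, 0.0509 without WT replicate 2, and 0.146, 0.148 and 0.0791 without MU replicates 1, 2 and 3). It was also lost with no filter (0.106), without the intensity trend (0.0667) and relative to neighbouring genes (0.0783).

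Slc25a39 and Slc25a40 bring glutathione into mitochondria. Slc25a39 had 169, 160.1 and 182 TPM in WT and 149, 153 and 167 TPM in MU. MU replicate 3 lay within the WT range. The difference of −0.12 (SE 0.09) did not pass (limma adjusted p = 0.385), and with quantile normalization its sign turned (0.02). Slc25a40 had 25.4 ± 6.82 TPM in WT and 15.3 ± 1.68 in MU (SD, n = 3). Its groups did not overlap, the difference of −0.67 did not pass (limma adjusted p = 0.0704), and its neighbours had a median of −0.31 relative to all tested genes. It passed without WT replicate 2 (−0.89, limma adjusted p = 0.00844) and with the GC and length correction (−0.55, 0.0209). Slc25a40 made up 12.9% ± 2.46 of the sum of both in WT and 8.95% ± 1.34 in MU.

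The following cofactor carriers did not pass. The level of the NAD carrier Slc25a51 was 30.1 ± 2.03 TPM in WT and 26.3 ± 2.61 in MU, and that of the folate and FAD carrier Slc25a32 was 30.0 ± 3.60 and 28.2 ± 3.99 (SD, n = 3). The coenzyme A carriers Slc25a16 and Slc25a42 had 16.5 ± 1.83 and 18.0 ± 0.94 TPM, and 5.24 ± 0.67 and 4.45 ± 0.37 TPM (WT and MU, SD, n = 3). Slc25a26, the carrier of S-adenosylmethionine, had 6.81, 7.15 and 7.99 TPM in WT and 3.34, 4.68 and 6.82 TPM in MU. Its groups overlapped narrowly, through WT replicate 1 and MU replicate 3, and the difference of −0.52 did not pass (limma adjusted p = 0.158). Its exons overlap those of Lrig1 on the other strand, whose mean TPM was 22.5 in WT and 9.42 in MU. The library kit marks the strand, but no source used here gives the strand setting of the counting, so reads of such pairs may not be told apart.

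The uncoupling-protein-like carriers are named for their likeness to the protein that makes brown fat produce heat. Their share of the family's TPM was 1.36% ± 0.05 in WT and 2.08% ± 0.07 in MU (SD, n = 3). Most of it came from Slc25a30. The summed TPM of the class was 38.9 ± 2.99 in WT and 53.7 ± 1.88 in MU, and that of Slc25a30 alone 26.9 ± 4.10 and 40.3 ± 2.37 (SD, n = 3). Slc25a30 rose and the other two did not pass.

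Slc25a30, a carrier first described in kidney (chromosome 14, 75760117 to 75787037, minus strand), had 26.0, 23.4 and 31.4 TPM in WT and 39.96, 42.8 and 38.1 TPM in MU. Every MU library was above every WT library. The difference was 0.57 (SE 0.12, limma adjusted p = 0.0235), a level 1.496-fold higher. Its chromosomal neighbours had a median of 0.40 relative to all tested genes, and relative to these neighbours the difference was 0.17 (limma adjusted p = 0.415). The call was also lost with no filter (0.0518), without WT replicate 1 (limma adjusted p = 0.0785) and without MU replicates 1, 2 and 3 (0.0821, 0.0969 and 0.0671). Slc25a27, which encodes UCP4, had 6.93 ± 1.04 TPM in WT and 9.51 ± 0.69 in MU (SD, n = 3). Its groups did not overlap, and the difference of 0.41 did not pass (limma adjusted p = 0.0814) but did with median-of-ratios scaling (0.0477) and the GC and length correction (0.0243). Slc25a14, which encodes UCP5, had 5.08 ± 0.93 and 3.88 ± 1.39 TPM, with groups that overlapped.

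Of the 9 remaining genes, which lie in the outer membrane or whose substrate is not assigned here, 5 were tested, Slc25a35 rose and 4 did not pass. Slc25a35 (chromosome 11, 68968131 to 68974365, plus strand) had 2.91, 2.96 and 2.31 TPM in WT and 4.84, 4.45 and 4.09 TPM in MU. The groups did not overlap. The difference was 0.55 (SE 0.15, limma adjusted p = 0.0460), and 0.29 at a pseudocount of 5. Its exons overlap those of Rangrf on the other strand, whose mean TPM was 48.6 in WT and 45.7 in MU, so its level is uncertain. The call was lost in every fit that left out a library except that without WT replicate 2 (limma adjusted p = 0.0915 without WT replicate 1, 0.0927 without WT replicate 3, and 0.158, 0.14 and 0.101 without MU replicates 1, 2 and 3). It was also lost with no filter (0.145), quantile normalization (0.0535) and relative to neighbouring genes (0.0687).

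Slc25a46, an outer-membrane protein of mitochondrial dynamics, had 18.9, 15.8 and 19.2 TPM in WT and 15.7, 13.9 and 13.4 TPM in MU. WT replicate 2 and MU replicate 1 nearly met. The difference of −0.31 (SE 0.12) did not pass (limma adjusted p = 0.127), and did without WT replicate 2 (0.0451). It was 0.02 relative to its neighbours, which had a median of −0.33 relative to all tested genes. Slc25a53, on the X chromosome, had 6.18 ± 0.48 TPM in WT and 4.66 ± 0.61 in MU (SD, n = 3), and its neighbours had a median of −0.50. Slc25a45 had 4.94 ± 1.32 and 6.72 ± 0.41 TPM and Slc25a47 had 9.85 ± 1.87 and 7.47 ± 0.80 TPM (WT and MU, SD, n = 3). Without WT replicate 2, Slc25a45 passed with a difference of 0.57 (limma adjusted p = 0.0371). Slc25a47 and Slc25a29 lie 162 bases apart on opposite strands of chromosome 12.

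The 9 members that were not tested were Slc25a2, Slc25a18, Slc25a21, Slc25a31, Slc25a34, Slc25a41, Slc25a43, Slc25a48 and Slc25a54. The highest TPM among them was 1.45, for Slc25a43 in MU replicate 1. Several have a tested relative of the same substrate: Slc25a31 is the ADP/ATP carrier of germ cells and had a TPM above 0 in 1 library, and Slc25a41 is an ATP-Mg carrier that lies 2.06 kb from Slc25a23. Slc25a2, an ornithine carrier, reached at most 0.924 TPM, while Slc25a15 had a mean of 10.6 in WT. Slc25a43 lies 18.4 kb from Slc25a5, and Slc25a54 lies 6.46 kb from Slc25a24.

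Position on the chromosomes moved with some of these values. For each member the median difference of up to 20 protein-coding neighbours on each side, relative to all tested genes, was taken, and it ran from −0.50 for Slc25a53 to 0.40 for Slc25a30. It was at or below −0.20 for 6 members and at or above 0.20 for Slc25a30 and Slc25a37. On chromosome 8, which holds Slc25a4, Slc25a15 and Slc25a42, 76.4% of tested genes were lower in MU, with a median of −0.31. On chromosome 18, with the tested member Slc25a46, 77.9% were lower (median −0.26). On the X chromosome, with Slc25a5, Slc25a14 and Slc25a53, 71.1% were lower (median −0.23). Other chromosomes went the other way, such as chromosome 10 with Slc25a3 and Slc25a16 (37.9% lower, median 0.11). When each member was taken relative to its neighbours, 5 fell (Slc25a5, Slc25a10, Slc25a23, Slc25a28 and Slc25a37) and 0 rose by limma adjusted p, against 8.62% lower and 6.32% higher over all tested genes in the same fit. The part of chromosome copy number in these values was not tested.

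**Figure D4:**
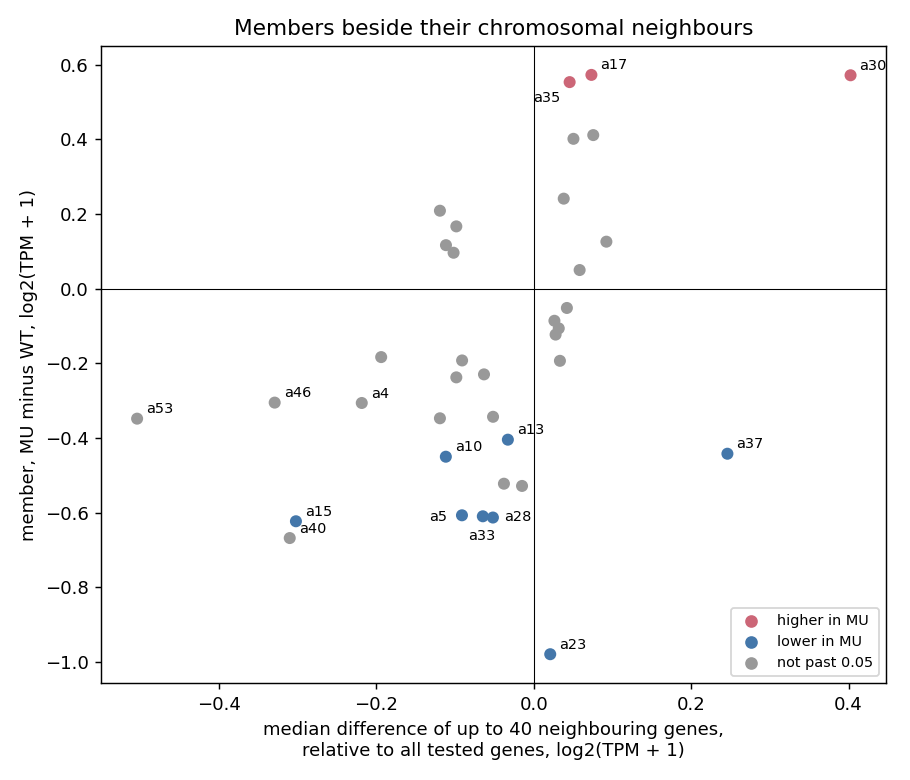
Difference of tested members (vertical axis, MU minus WT, log2(TPM + 1)) against the median difference of its chromosomal neighbours relative to all tested genes (horizontal axis). Points are members, coloured by call and labelled without the prefix Slc25. Slc25a30 lies at 0.57 with neighbours at 0.40, whereas Slc25a23 lies at −0.98 with neighbours at 0.02 and Slc25a37 at −0.44 with neighbours at 0.25.

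The genes that import, accompany or use the carriers were counted in 3 lists. Of the 16 genes of the import route through TOM and TIM22, all were tested, 3 fell (Timm8a1, Tomm5 and Tomm70a) and 13 did not pass, where 11.6% of all tested genes were called lower and 7.12% higher. The median difference was −0.43, against −0.05 for all genes, and 15 of 16 had a lower mean in MU, as had 55.6% of all tested genes. Their summed TPM was 1530.04 ± 75.1 in WT and 1194 ± 58.5 in MU (SD, n = 3). Leaving out WT replicate 3 gave 6 that fell, and a TPM minimum of 5 gave 5. Of the genes tested in these fits, 11.2% and 14.7% were called lower.

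Tomm5, a small subunit of the outer-membrane channel, had 173, 186 and 184 TPM in WT and 128, 122 and 110.1 TPM in MU. No MU library came near WT. The difference was −0.59 (SE 0.09, limma adjusted p = 0.00637), and it passed in all 18 alternative settings. Timm8a1, a small chaperone between the membranes, had 59.3, 55.3 and 79.3 TPM in WT and 30.8, 31.3 and 30.1 TPM in MU. The MU libraries agreed within 2 TPM, far below WT. The difference was −1.03 (SE 0.14, limma adjusted p = 0.00514), its neighbours on the X chromosome had a median of −0.59, and relative to them it was −0.44 (limma adjusted p = 0.084). Tomm70a, the receptor for carriers, was named after its values were seen and had 58.6 ± 6.86 TPM in WT and 38.5 ± 2.47 in MU (SD, n = 3; difference −0.59, limma adjusted p = 0.0148). Its limma adjusted p was 0.0519 without WT replicate 1 and 0.0586, 0.0546 and 0.0649 without MU replicates 1, 2 and 3. The channel gene Timm22 had 35.5 ± 7.05 and 23.9 ± 3.04 TPM, and its difference of −0.54 did not pass (limma adjusted p = 0.0642).

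Of 28 other transporters and channels of the mitochondrial membranes, 26 were tested, 3 fell (Abcb8, Abcb10 and Sfxn5), Ucp2 rose and 22 did not pass, with a median difference of −0.05. These shares of 11.5% lower and 3.85% higher are at or below those over all tested genes (11.6% and 7.12%), so the count says nothing particular about this list. Abcb8, an inner-membrane ABC transporter, had 31.9, 30.7 and 35.8 TPM in WT and 15.9, 14.2 and 20.2 TPM in MU. All MU libraries were well below WT. The difference was −0.94 (SE 0.14, limma adjusted p = 0.00725) and it passed in all 18 alternative settings. Abcb10, which is linked to heme synthesis and binds mitoferrin 1 in mouse red-cell precursors, had 30.1, 26.3 and 34.3 TPM in WT and 21.6, 21.1 and 19.98 TPM in MU. The groups did not overlap, the difference was −0.51 (SE 0.12, limma adjusted p = 0.0272), and relative to its neighbours on chromosome 8 it was −0.11 (limma adjusted p = 0.57). Its call was lost in 9 of 18 alternative settings: without WT replicate 1 or any MU replicate its limma adjusted p was 0.0818 to 0.101, and with no filter it was 0.0548, with the GC and length correction 0.0583, and under rescaling that leaves out mtDNA-encoded genes 0.0596. Ucp2, a relative of the uncoupling protein of brown fat, had 59.4, 53.6 and 62.6 TPM in WT and 74.2, 71.3 and 83.4 TPM in MU. All MU libraries were higher, by 0.38 (SE 0.10, limma adjusted p = 0.0441), and the call was lost in 9 of 18 alternative settings, those without any 1 library other than WT replicate 3 among them (limma adjusted p = 0.0572 to 0.148). In Sfxn5, named after its values were seen, the difference was −0.60 (limma adjusted p = 0.0300). Sfxn5 lost the call in 7 of 18 alternative settings, with no filter (limma adjusted p = 0.0709) and without any 1 library other than MU replicate 3 (0.0548 to 0.103) among them.

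Of 23 enzymes that work with the carriers, 20 were tested, 4 fell (Alas1, Mdh2, Got1 and Got2) and 16 did not pass, with a median difference of −0.19. Of all tested genes 11.6% were called lower and 7.12% higher. Alas1, which makes the first intermediate of heme from glycine and succinyl-CoA, had 24.7, 28.7 and 24.2 TPM in WT and 8.06, 8.71 and 11.1 TPM in MU. No MU library reached the level of the lowest WT library, and the mean level was 2.78-fold lower. The difference was −1.39 (SE 0.14, limma adjusted p = 0.00194), and it passed in all 18 alternative settings. Ferrochelatase, the last enzyme of the same pathway, had a limma adjusted p of 0.681 (Fech, 29.7 TPM in WT and 27.4 in MU).

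Mdh2, the matrix malate dehydrogenase of the malate-aspartate shuttle, had 422, 398 and 389 TPM in WT and 298, 302 and 306 TPM in MU. The groups were far apart for their narrow ranges. The difference was −0.42 (SE 0.08, limma adjusted p = 0.0142), and −0.22 relative to its neighbours (limma adjusted p = 0.111). Leaving out MU replicates 1, 2 and 3 gave limma adjusted p-values of 0.0791, 0.0809 and 0.0654. Got1 and Got2, the aspartate aminotransferases of the same shuttle, were named after their values were seen, with differences of −0.39 and −0.57 (limma adjusted p = 0.0287 and 0.0456), and lost the call in 10 and 12 of 18 alternative settings. Without WT replicate 1, WT replicate 3 or any MU replicate, limma adjusted p-values were 0.0505 to 0.119 for Got1 and 0.0834 to 0.14 for Got2. The cytosolic Mdh1 had 191 TPM in WT and 234 in MU (difference 0.29, limma adjusted p = 0.0731), and its neighbours had a median of 0.33 relative to all tested genes.

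**Figure D5:**
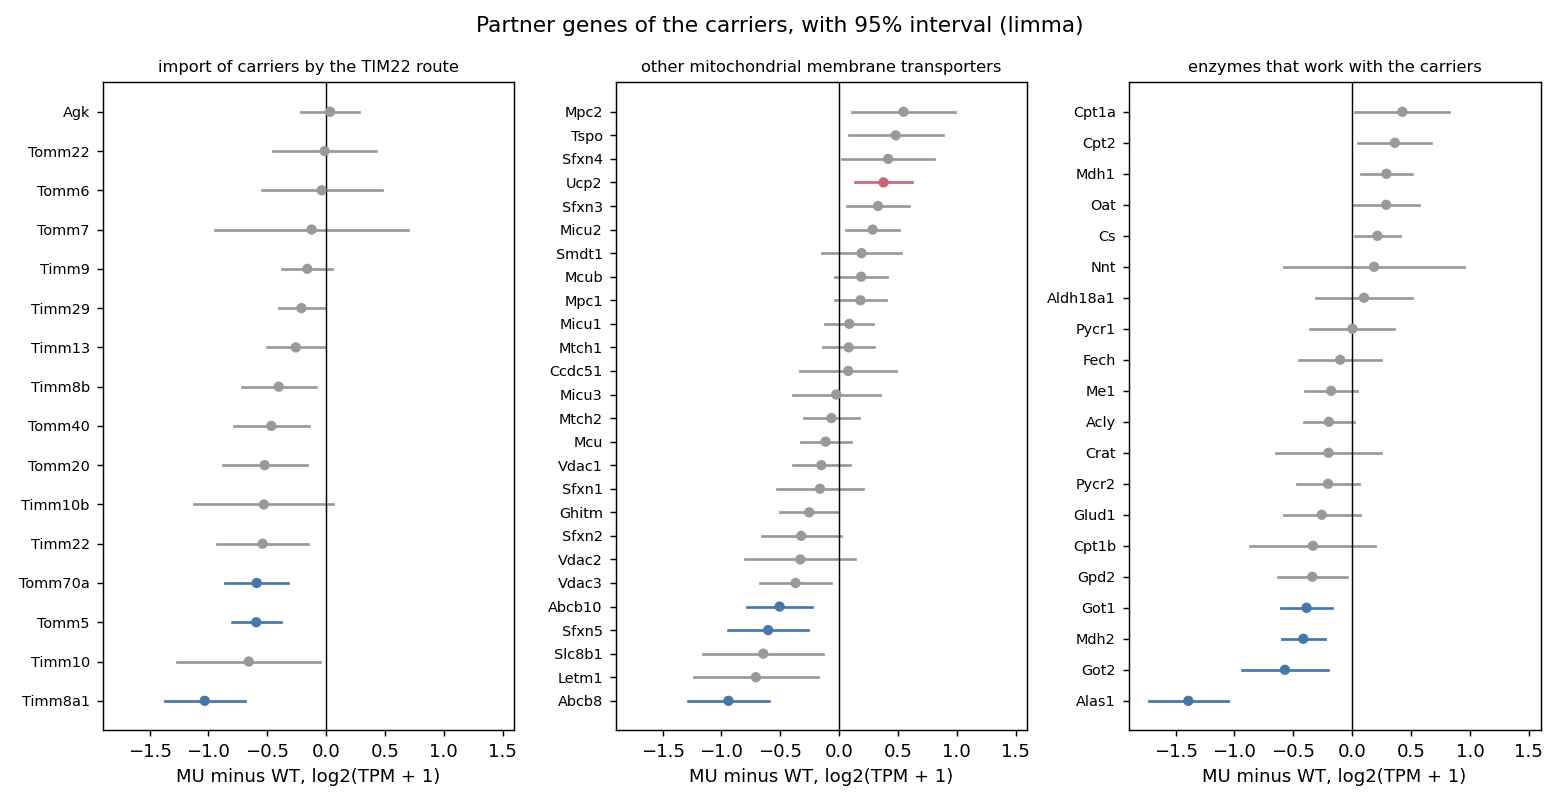
Difference between MU and WT with its 95% interval (limma, log2(TPM + 1), n = 3 per group) for the tested genes of the 3 lists: 16 of the import route, 26 other transporters and 20 enzymes. Red marks genes that were higher and blue genes that were lower at an adjusted p under 0.05. Alas1 lies lowest at −1.39, and 15 of the 16 import genes lie below 0.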

How the data were processed

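Stranded mRNA libraries of NIH-3T3 cells (3 WT, 3 MU) were sequenced, per the labels' protocols. The submitters' processing notes name DESeq2 1.20.0, featureCounts 1.5.0-p3, HISAT2 2.05.0 and FastQC 0.11.4, with build mm10. No source used here gives their settings, such as that for strand. Per the file headers and its values, the expression table holds log2(TPM + 1) of each library, deposited with up to 4 digits. A second table that the authors deposited gives log2 fold changes with the p-value of each, raw and adjusted. TPM as the authors deposited it keeps no depth, so depth is unknown and no counting interval was computed.

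Values were returned to TPM, genes below 1 TPM in more than 3 of the 6 libraries were left out, and log2(TPM + 1) was tested with limma 3.58.1 in R 4.3.3 (intensity trend, two-sided, no covariate, Benjamini-Hochberg over 14209 genes, threshold 0.05). Differences on this scale understate changes of low genes. The 18 alternatives were leaving out the filter or raising its minimum to 5 TPM, a replicate block, a pseudocount of 0.1 or of 5, 3 scalings, limma without trend or robust, a loess correction for GC content and length (span 0.3), a fit relative to up to 20 protein-coding neighbours on each side, and leaving out each library. Positions come from GENCODE M21, matched for 55141 of 55401 genes, and copies were sought with blastn 2.17.0 (at least 95% identity over at least 300 bases). The test was tried on simulated data, where estimates were close to the simulated sizes; the share of changed genes recovered fell short of the first requirement, which was then lowered.

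Members of the family, the lists, the substrate classes and the tests were chosen with earlier results of these data known. All Slc25 genes are in the counts, and some genes of the family and of the lists are not reported here. The partner lists and the plots leave such genes out, and this was done after their values were known. Library values are given for members past 0.05 and for the most abundant member of each class, and in each partner list for the 2 higher and 2 lower genes with the smallest adjusted p. Other genes with values were chosen after these were seen. All 67 partner genes matched as written.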

Additional observations from a re-analysis of the deposited data

How the results depend on the processing

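Over 18 alternatives, Slc25a23, Tomm5, Abcb8 and Alas1 kept both direction and call, and no called Slc25 member changed sign. The replicate block, the filter settings, limma without trend and limma robust leave each difference as it was and cannot turn a sign. Among the most abundant members of each class, the sign turned for Slc25a3 with the GC and length correction (0.0345), under median-of-ratios scaling (0.0138) and after rescaling without mtDNA-encoded genes (0.0133), for Slc25a39 with quantile normalization (0.0197) and for Slc25a46 relative to its neighbours (0.024). Leaving out each library gave −0.16 to 0.00083 for Slc25a3, with a turned sign without WT replicate 1 and WT replicate 3, and −0.14 to 0.38 for Slc25a1, with a turned sign without WT replicate 3. The causes were not tested. Depth is unknown, so what it limits could not be said. A fit that leaves out 1 library rests on 2 against 3 libraries.

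Members that rose numbered 3, and 0 with no filter or relative to neighbours, and 5 with median-of-ratios scaling or the GC and length correction. Of the genes tested in each fit, 7.12% were called higher in the main fit, 2.26% with no filter and 6.32% relative to neighbours. This share was 8.99% with median-of-ratios scaling and 11.1% with the GC and length correction. Members that fell numbered 8, and 5 with no filter, after rescaling without mtDNA-encoded genes or relative to neighbours. Called lower were 11.6% of tested genes in the main fit, 3.85% with no filter, 8.66% after that rescaling and 8.62% relative to neighbours. Leaving out each library gave 0 to 3 that rose and 1 to 11 that fell, and 1071 to 3391 genes over all, where 2667 were called. In these fits 3.01% to 8.11% of all tested genes were called higher and 4.53% to 15.8% lower. Enzymes that rose numbered 0, and 2 with median-of-ratios scaling, 3 with the GC and length correction and 4 with quantile normalization, with 0 to 1 on leaving out each library. Enzymes that fell numbered 4, and 2 without trend, with quantile normalization, relative to neighbours or after rescaling without mtDNA-encoded genes, with 1 to 6 on leaving out each library. Import genes that fell numbered 3, and 5 at a TPM minimum of 5 and 6 with the GC and length correction, with 2 to 6 on leaving out each library. Other transporters that rose numbered 1, and 0 with no filter or without trend, 5 with the GC and length correction or quantile normalization, 3 with median-of-ratios scaling, and 2 after rescaling without mtDNA-encoded genes, with 0 to 2 on leaving out each library. Those that fell numbered 3, and 1 with no filter, with 1 to 6 on leaving out each library. The share of higher calls was 37.9%, and 48.8% with quantile normalization, 48.3% with median-of-ratios scaling and 48.6% after rescaling without mtDNA-encoded genes.

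Deviations of same-numbered WT and MU libraries correlated at 0.0495, 0.0154 and −0.0744 across genes, and those of differently numbered ones at −0.137 to 0.12. These correlations showed no pairing by the replicate numbers of the labels. With the replicate block, 1093 genes were called, with 0 members that rose and 1 that fell (Slc25a23), 1 enzyme that fell, and 0 other transporters that rose and 1 that fell. In that fit 3.21% of all tested genes were called higher and 4.48% lower.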
